A study of Mus musculus with 6 samples.

Results

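The genes for 7 matrix metalloproteinases (Mmp2, Mmp3, Mmp9, Mmp11, Mmp13, Mmp14 and Mmp15) and for 3 tissue inhibitors of metalloproteinases (Timp1, Timp2 and Timp3) were followed in mouse mammary glands engrafted with epithelium that either carried or lacked functional Adamts18, a gene for a secreted protease of a related family. They were chosen by name, as Mmp genes of branching and matrix turnover together with Timp genes, and are 10 of the 34590 gene symbols with read counts. Each of 3 host mice gave 2 RNA-seq libraries, 6 in all. The left inguinal gland (gland 4) was engrafted with WT.EGFP+ and the right one with Adamts18-/-.EGFP+ epithelium, and the effects of genotype and side therefore cannot be told apart. The mutant allele lacks exons 8 and 9 of Adamts18, and the donor cells of both genotypes carried EGFP under a chicken β-actin promoter. The hosts were WT females whose own epithelium had been removed surgically, so that the stroma around the graft came from a WT host on either side. The age of the hosts at RNA extraction and the time since engraftment are not given in the sources used here, and host, donor and experiment cannot be told apart between the 3 mice.

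Matrix metalloproteinases are zinc-dependent endopeptidases that are made as inactive proenzymes and cleave collagens, laminins, fibronectin, proteoglycans and cell surface proteins. TIMPs bind their active sites and block them, and TIMP2 also takes part in the activation of proMMP2 at the cell surface by MMP14. In the growing mammary gland these enzymes are made largely by the stroma around the ducts and are known for their part in duct elongation, side branching and the remodelling of the gland after lactation.

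Total counts were 53875123 to 71595924 per library, and 3 counts, the limit that a count of 0 allows, corresponded to 0.0430 to 0.0574 CPM (counts scaled by library size and TMM factor), which covers counting error only. Where values of 3 glands of one group follow each other below, they are those of mice 1, 2 and 3 in this order. Adamts18 itself was at 3.61, 9.92 and 6.80 CPM in WT glands and at 2.75, 4.87 and 3.29 CPM in the contralateral Adamts18-/- glands. This was a log2 fold change of -0.83 (standard error 0.19, unadjusted p = 0.00922, adjusted p = 0.987, edgeR's quasi-likelihood test). Adamts18 was below 0 under all 13 alternatives, but its unadjusted p was 0.0582 without mouse 2, 0.0767 without the mouse as a block, 0.0655 with scaling to fibroblast markers and 0.253 with scaling to pan-epithelial markers (log2 fold change -0.47), and its adjusted p was 0.196 to 1. Its count does not separate the deleted exons from the others. The sample labels describe sorted GFP-positive mammary epithelial cells, but markers of other cell types were high in every library. The summed level of 10 fibroblast markers was 9146 to 12572 CPM, that of 6 adipocyte markers 5126 to 11630 CPM and that of 8 macrophage markers 1152 to 1830 CPM, beside 946 to 1931 CPM for 22 pan-epithelial markers. The libraries are therefore called glands, and in such mixed RNA fewer cells of a type and less RNA per cell cannot be told apart. Skeletal muscle markers (6 genes) summed to 257, 753 and 2467 CPM in WT glands and to 9767, 9580 and 1661 CPM in the Adamts18-/- glands, and the part of this difference in the values below was not tested. Of 8 genes of the dissociation stress response 3 were higher and 2 lower at the thresholds given below, and of 7 endothelial and 6 adipocyte markers 0 were.

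Per length of transcript, the inhibitors Timp2 and Timp3 and the gelatinase Mmp2 were the most abundant of the 10 genes. Levels were compared between genes as CPM per kilobase of the longest annotated transcript. Timp2 was at 366 ± 84.5, Timp3 at 242 ± 73.2 and Mmp2 at 212 ± 38.8 CPM per kb in WT glands (SD, n = 3 each). Their ranges over the 6 glands overlapped, with a lowest value of 107 CPM per kb for Timp3 in the Adamts18-/- gland of mouse 3. Next came Mmp3 at 76.8 ± 12.9 and Mmp14 at 76.7 ± 14.7 CPM per kb (WT, SD, n = 3 each), which could not be ordered by this length. The tier below held Mmp15 at 14.1 ± 2.17, Mmp11 at 11.7 ± 2.38, Mmp9 at 8.73 ± 1.62 and Timp1 at 6.43 ± 2.14 CPM per kb (WT, SD, n = 3 each), and in this tier too the ranges of neighbouring genes overlapped. Mmp13 stood last at 0.629 ± 0.456 CPM per kb (WT, SD, n = 3). The ranges of these tiers did not overlap. The order within and between the upper tiers depended on the length used. With the merged exons of each gene as its length, the WT mean was 349 CPM per kb for Timp2, 194 for Mmp2 and 140 for Timp3, so that Timp3 came after Mmp2, and in the Adamts18-/- gland of mouse 3 Timp3 was at 62.1 CPM per kb, within the range of Mmp3. Mmp14 was then at 41.6 ± 7.96 CPM per kb (WT, SD, n = 3), below Mmp3 in each of the 6 glands.

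**Figure D1:**
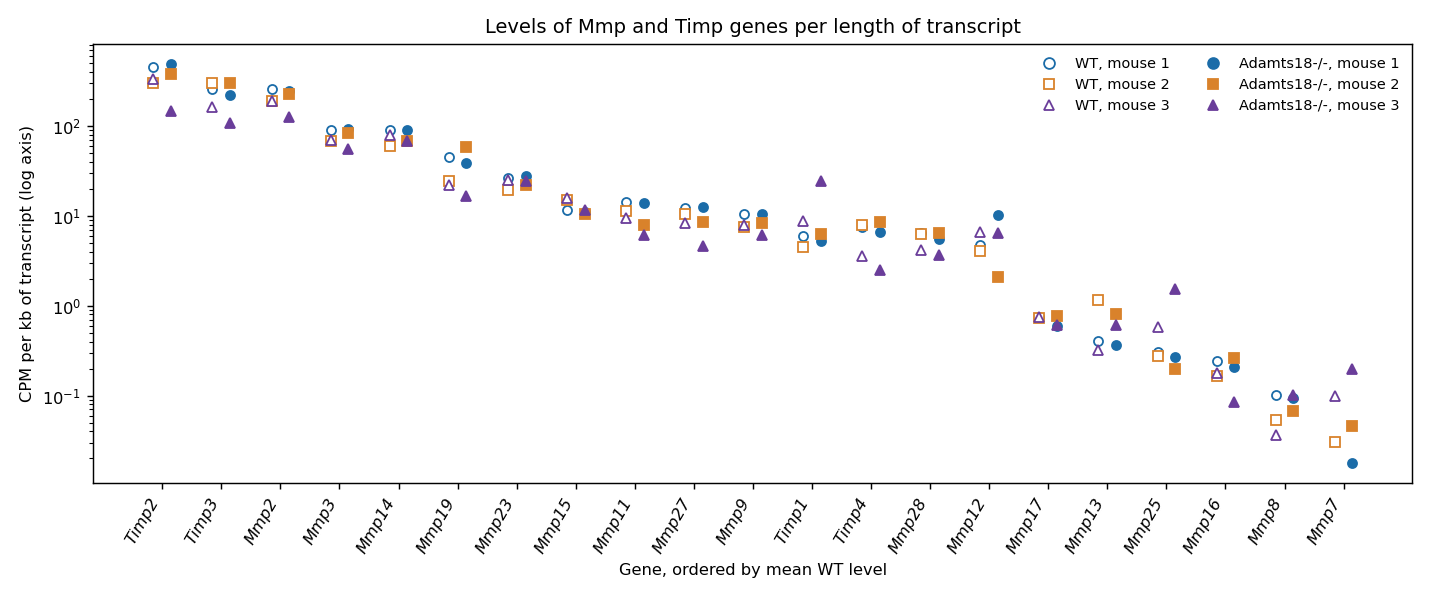
Level of every Mmp and Timp gene that reached 0.05 CPM per kb of its longest transcript in at least 1 gland (log axis; glands at 0 are not drawn), ordered by the mean of the WT glands. Open symbols are WT and filled symbols Adamts18-/- glands, 1 shape and colour per mouse; Timp2, Timp3 and Mmp2 lead, Mmp3 and Mmp14 follow, and Mmp13 is the lowest of the 10 genes.

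Added over genes, the transcripts of the 3 Timp genes outnumbered those of the 7 Mmp genes in every gland when the longest transcript was taken as the length. The ratio of the summed levels per kb was 1.53, 1.73 and 1.35 in WT glands and 1.55, 1.70 and 1.01 in the Adamts18-/- glands. The means were 1.54 ± 0.187 and 1.42 ± 0.358 (SD, n = 3 each), so the groups overlapped, and the Adamts18-/- gland of mouse 3 was the lowest. With merged exons as the lengths they were 1.44 ± 0.103 and 1.35 ± 0.314, and in the Adamts18-/- gland of mouse 3 the ratio was then 0.985. Timp1 made up 0.735% to 1.73% of the summed Timp level in 5 glands and 8.94% in the Adamts18-/- gland of mouse 3. Mmp2 held 45.7% to 55.8% of the summed Mmp level.

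Between the genotypes, 1 of the 10 genes was lower at the thresholds used in the study (a fold change under 0.8 or over its inverse, each with p below 0.05 before adjustment) and 0 were higher. The gene was Mmp15. Over all 17345 genes tested, 1.84% were lower and 1.17% higher by the same rule. By adjusted p under 0.05 the count was 0 of 10, as for all genes (0%; 670 genes, or 3.86%, at an unadjusted p under 0.05, edgeR's quasi-likelihood test and Benjamini-Hochberg adjustment). DESeq2 called 71 genes by adjusted p and limma-voom 0, none of the 10 genes among them. The fitted log2 fold change was below 0 for 8 of the 10 genes, with a median of -0.10, against 0.00065 over all genes tested. Mmp11, Mmp15 and Timp3, 3 of the 10, were lower in the Adamts18-/- gland of all 3 mice, where 12.7% of all genes were, and 0 were higher in all 3, where 10.8% were.

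**Figure D2:**
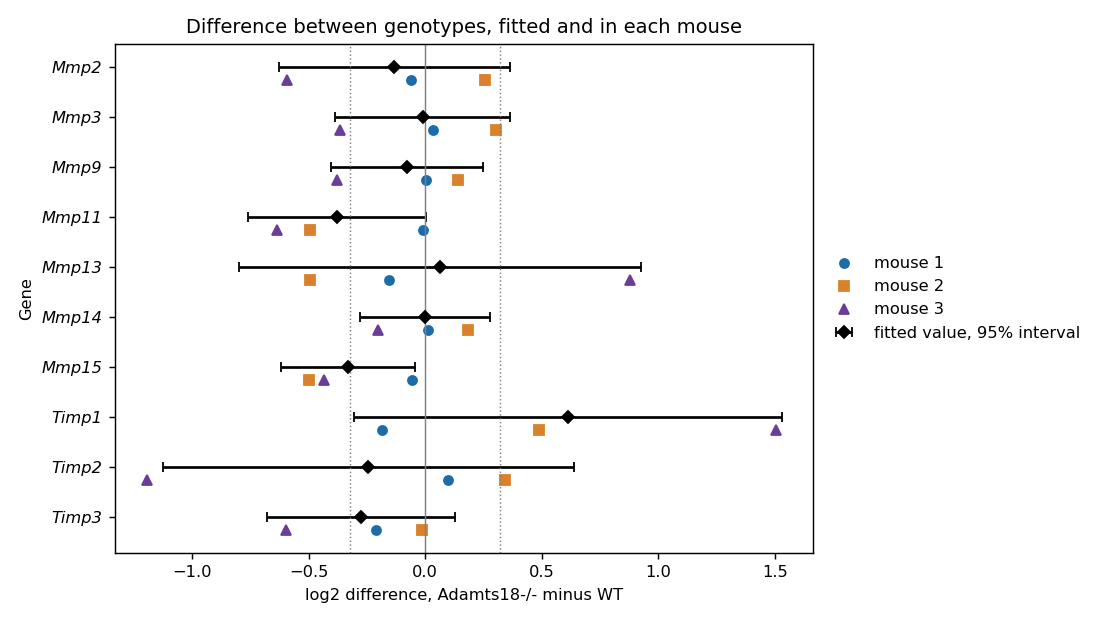
Fitted log2 difference (Adamts18-/- minus WT, black diamonds with 95% intervals, n = 3 pairs of glands) and the difference within each mouse (coloured symbols) for the 10 genes; dotted lines mark a fold change of 0.8 and its inverse. The interval of Mmp15 alone lies wholly below 0, that of Mmp11 ends at 0.0022, and the points of mouse 3 lie farthest from 0 for 9 of the 10 genes. The median absolute difference over all genes tested was also largest in mouse 3.

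Among the membrane-type enzymes, which are anchored at the cell surface and cleave matrix next to the cell, Mmp15 (membrane-type 2) was the gene that passed. Mmp15 (GRCm38, GENCODE M21: chromosome 8, 95352268 to 95375080, plus strand) was at 59.8, 76.8 and 80.7 CPM in WT glands and at 57.5, 54.4 and 59.7 CPM in the Adamts18-/- glands. Every Adamts18-/- value lay below every WT value, but the highest of them was only just under the WT gland of mouse 1. Such a separation was found in 2.63% of all genes tested in this direction and in 2.31% in the other, and of the 10 genes in 1 (Mmp15) and 0. The means were 72.4 ± 11.1 and 57.2 ± 2.67 CPM (SD, n = 3 each), and the fitted log2 fold change was -0.33 (standard error 0.11, 95% interval -0.62 to -0.042, fold change 0.796, unadjusted p = 0.0324, adjusted p = 0.987, edgeR's quasi-likelihood test). The difference was -0.056 in mouse 1, where the glands were nearly level, and -0.50 and -0.44 in mice 2 and 3. The call was lost without mouse 2 (-0.25, unadjusted p = 0.139) and without mouse 3 (-0.27, unadjusted p = 0.0752), and over 13 alternatives the adjusted p was 0.815 to 1.

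Fitted over the 3 mice, epithelial markers were also lower in Adamts18-/- glands, and their part in the value of Mmp15 was not tested. All 22 pan-epithelial markers were tested and had a fitted log2 fold change below 0, with a median of -0.36. At the thresholds 4 of them fell, 5 of 6 luminal and 6 of 7 myoepithelial markers likewise (some luminal markers are also in the pan-epithelial list). In mouse 1, however, 18 of the 22 pan-epithelial markers were higher on the Adamts18-/- side, against 0 in mouse 2 and 1 in mouse 3. The summed pan-epithelial level was 1258 to 1931 CPM in WT and 946 to 1386 CPM in Adamts18-/- glands, with none of the markers at 0, and its log2 ratio was 0.062, -0.77 and -0.48 in mice 1, 2 and 3, opposite in sign to Mmp15 in mouse 1. The luminal sum was 1493 to 1994 CPM in WT and 1059 to 1298 CPM in Adamts18-/- glands, and the myoepithelial sum 932 to 1645 and 599 to 1153 CPM. The log2 ratio of the luminal sum was -0.20, -0.76 and -0.63 in mice 1, 2 and 3. That of the myoepithelial sum was -0.31, -0.51 and -0.64, so both sums had the sign of Mmp15 in each mouse. Scaling to the pan-epithelial markers instead of all genes raised the median of all genes from 0.00065 to 0.36, a shift common to all genes. With this scaling the log2 fold change of Mmp15 was 0.025 (unadjusted p = 0.951, edgeR's quasi-likelihood test). Scaled to the fibroblast markers it was -0.30 (unadjusted p = 0.373).

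Mmp14 (membrane-type 1), a collagenase of the cell surface and the main activator of proMMP2, was at 290, 197 and 258 CPM in WT glands and 292, 224 and 224 CPM in Adamts18-/- glands of mice 1, 2 and 3. The groups overlapped throughout. Its log2 fold change was -0.0029 with a 95% interval of -0.28 to 0.28, which spans less than the thresholds in both directions. It was higher than Mmp15 per kb in every gland.

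Of the stromelysins, enzymes of the stroma, Mmp11 came close to the thresholds and Mmp3 did not. Mmp11 (stromelysin 3; chromosome 10, 75923222 to 75936496, minus strand) was at 32.5, 25.8 and 21.7 CPM in WT glands and at 32.3, 18.3 and 13.9 CPM in the Adamts18-/- glands. The Adamts18-/- glands of mice 2 and 3 were below all WT glands, while both glands of mouse 1 were the highest of their group and nearly level. The log2 fold change was -0.38 (standard error 0.15, 95% interval -0.76 to 0.0022, unadjusted p = 0.0509), with -0.0083, -0.49 and -0.64 in mice 1, 2 and 3. Mmp11 passed the thresholds under 4 of 13 alternatives, DESeq2 (unadjusted p = 0.0379), library size scaling (0.0470), no filter on low counts (0.0341) and without mouse 1 (log2 fold change -0.57, 0.0170), and with the pan-epithelial scaling its log2 fold change was -0.027. Its exons share 155 of 2778 bases with Chchd10 on the opposite strand, a gene of 30.1 to 46.8 CPM, and how the counting treated strand is not given in the sources used here.

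The promoters of the pair with the smallest unadjusted p among the 10 genes are shown first, as the bases upstream of the RefSeq start on GRCm38.p6, 5′ to 3′ on the strand of the gene. For Mmp15 the stretch is chr8:95352046-95352267 (plus strand, 222 bases, ending 28 bases before the RefSeq start), and for Mmp11 it is chr10:75932503-75932752 (minus strand, 250 bases up to the start). The Mmp11 window lies inside the GENCODE M21 gene, which starts at 75936496 on this strand, so the RefSeq and GENCODE starts differ for this gene. Promoter windows were found for 8 of the 10 genes; Mmp2 and Mmp9 had no entry. Capitals mark the letters of 3 short motifs, searched on both strands: the AP-1 motif TGANTCA, the TATA box TATAAA and the GC box GGGCGG, which are not overlapping in the stretches printed. They occur in 6.75%, 12.4% and 32.7% of 32851 promoter windows.
Mmp15: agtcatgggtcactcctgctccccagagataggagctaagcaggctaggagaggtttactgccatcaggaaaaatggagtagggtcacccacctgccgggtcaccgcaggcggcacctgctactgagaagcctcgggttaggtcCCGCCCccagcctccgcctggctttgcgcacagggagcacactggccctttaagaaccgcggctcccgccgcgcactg
Mmp11: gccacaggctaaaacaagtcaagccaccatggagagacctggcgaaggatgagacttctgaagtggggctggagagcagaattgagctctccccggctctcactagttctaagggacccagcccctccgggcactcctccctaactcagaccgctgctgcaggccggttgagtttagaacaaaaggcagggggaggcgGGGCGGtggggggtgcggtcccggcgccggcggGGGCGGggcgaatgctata
Mmp15 held 1 GC box and Mmp11 held 2, and neither held an AP-1 motif or a TATA box in these letters.

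Mmp3 (stromelysin 1; chromosome 9, 7445822 to 7455975, plus strand), which cleaves many matrix proteins and activates other proMMPs, was at 165, 122 and 128 CPM in WT glands and 169, 150 and 99.2 CPM in Adamts18-/- glands. The Adamts18-/- group held both the highest value, in mouse 1, and the lowest, in mouse 3. Its fitted log2 fold change was -0.010 (95% interval -0.39 to 0.37), and the differences of 0.30 in mouse 2 and -0.37 in mouse 3 had opposite signs.

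Mmp13, the main interstitial collagenase of the mouse, had the lowest level of the 10 genes. It was counted 49 to 189 times per library, at 1.09, 3.08 and 0.870 CPM in WT glands and 0.9752, 2.178 and 1.63 CPM in the Adamts18-/- glands. Both glands of mouse 2 were the highest of their group, and the groups overlapped. Fitted over the mice, the log2 fold change was 0.062 with a 95% interval of -0.80 to 0.93, wide enough to include changes past either threshold. In mouse 3 the difference was 0.88 and in mouse 2 it was -0.49.

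Mmp3 and Mmp13 lie in one cluster of 10 Mmp genes on chromosome 9 that spans 427072 bases (GRCm38). Only 5 of these 10 genes passed the filter on low counts. Mmp3 led the cluster at 99.2 to 169 CPM, followed by Mmp12 (macrophage elastase) at 9.39 to 46.2 CPM and Mmp27 at 8.85 to 23.8 CPM. Mmp1b and Mmp20 were at 0 in all 6 libraries. Per kb, the WT mean of Mmp3 was 76.8 and that of Mmp13 was 0.629. Their promoters are shown because these neighbours stood so far apart in level: chr9:7445572-7445821 for Mmp3 and chr9:7272264-7272513 for Mmp13 (GRCm38.p6, both plus strand, 250 bases up to the RefSeq start), with the same motifs in capitals.
Mmp3: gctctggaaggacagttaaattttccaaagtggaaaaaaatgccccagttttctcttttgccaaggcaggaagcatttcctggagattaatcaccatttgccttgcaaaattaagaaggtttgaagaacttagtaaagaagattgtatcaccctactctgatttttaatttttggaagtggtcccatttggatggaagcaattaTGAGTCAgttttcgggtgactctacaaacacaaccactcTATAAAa
Mmp13: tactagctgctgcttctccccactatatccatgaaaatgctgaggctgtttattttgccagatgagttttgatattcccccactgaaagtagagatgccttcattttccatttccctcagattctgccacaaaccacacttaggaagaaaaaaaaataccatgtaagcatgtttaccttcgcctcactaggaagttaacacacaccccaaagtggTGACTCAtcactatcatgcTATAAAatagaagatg
Each held 1 AP-1 motif, as TGAGTCA in Mmp3 and TGACTCA in Mmp13, and 1 match to the TATA box letters, and neither held a GC box. The TATA match ended 2 bases before the RefSeq start in Mmp3 and 11 bases before it in Mmp13. Whether these letters act as a TATA box was not tested. The letters searched therefore did not part the highly counted gene of the cluster from the weakly counted one.

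The gelatinases cleave denatured collagen and type IV collagen of basement membranes. Mmp2 (chromosome 8, 92827291 to 92853420, plus strand), made mostly by fibroblasts, was at 792, 588 and 582 CPM in WT glands and 760, 702 and 385 CPM in the Adamts18-/- glands. The Adamts18-/- gland of mouse 3 was below all others, and the remaining values of the groups were mixed. The log2 fold change was -0.13 (standard error 0.19, 95% interval -0.63 to 0.36, unadjusted p = 0.516), with -0.060, 0.25 and -0.59 in mice 1, 2 and 3, and it was 0.11 without mouse 3. Mmp9 (chromosome 2, 164940780 to 164955850, plus strand), known from macrophages and neutrophils, was at 33.6, 24.1 and 25.4 CPM in WT glands and 33.7, 26.6 and 19.6 CPM in Adamts18-/- glands. Both glands of mouse 1 were again the highest of their group, and the groups overlapped. Its log2 fold change was -0.077 (95% interval -0.40 to 0.25) and 0.080 without mouse 3. Per kb, Mmp2 was above Mmp9 in every gland.

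The stromal and myeloid markers that these enzymes are known from were present in both groups, and 0 of 10 fibroblast, 0 of 8 macrophage and 0 of 4 tested neutrophil markers passed the thresholds. The fibroblast markers had a median log2 difference of 0.020, 0.34 and -0.42 in mice 1, 2 and 3, beside -0.060, 0.25 and -0.59 for Mmp2. The list was split in mouse 3, where 6 markers were below 0, such as Fbln1 (-1.56) and Dcn (-0.84), and 4 above, Col3a1 (0.81), Thy1 (0.57), Col1a1 (0.24) and Col1a2 (0.15), and the log2 ratio of the summed level was 0.032, 0.42 and 0.18 in mice 1, 2 and 3. Their summed level was 9146 to 12295 CPM in WT and 11235 to 12572 CPM in Adamts18-/- glands, with none at 0. The macrophage markers had a median log2 difference of -0.016, 0.25 and -0.25 in mice 1, 2 and 3, beside 0.0031, 0.14 and -0.38 for Mmp9. That of the 4 tested neutrophil markers was -0.22, -0.17 and 1.07. The summed neutrophil level was 15.1 to 22.2 CPM in WT and 14.5 to 25.0 CPM in Adamts18-/- glands, and 2 of the 8 neutrophil markers were at 0 in at least 1 library. The part of these cell types in the values of Mmp2 and Mmp9 was not tested.

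**Figure D3:**
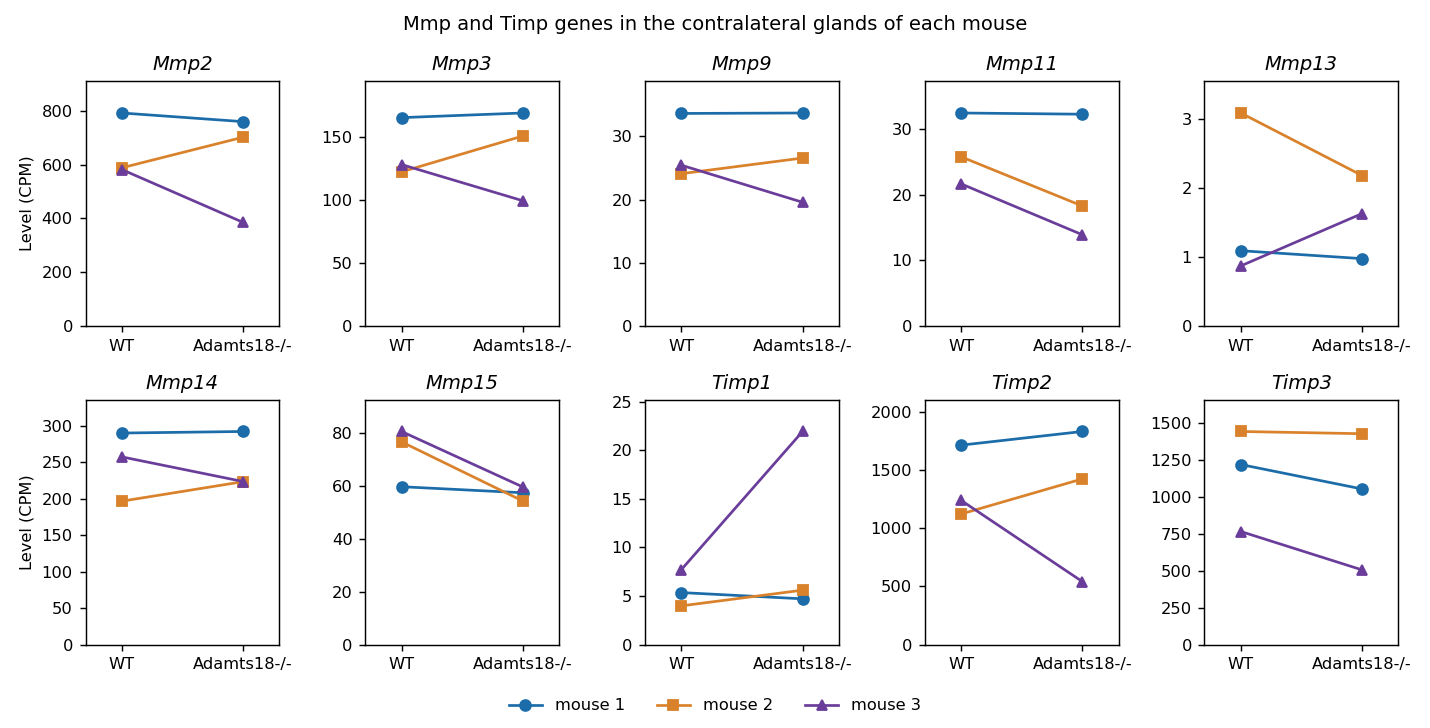
Level (CPM, TMM-scaled, linear axes from 0) of the 10 genes in each gland, with a line joining the WT and Adamts18-/- glands of 1 mouse. Mouse 1 is nearly level for most genes, Mmp15 has its Adamts18-/- values between 54.4 and 59.7 CPM, below all WT values, and Timp1 stands out in the Adamts18-/- gland of mouse 3 at 21.9 CPM.

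None of the 3 inhibitors passed the thresholds (unadjusted p = 0.146 for Timp1, 0.503 for Timp2 and 0.138 for Timp3, edgeR's quasi-likelihood test), and they differed in direction. Timp1 (chromosome X, 20870166 to 20874735, plus strand), the inducible inhibitor, was at 5.35, 3.98 and 7.71 CPM in WT glands and at 4.70, 5.59 and 21.9 CPM in the Adamts18-/- glands. The Adamts18-/- gland of mouse 3 stood far above the other 5 glands, which were mixed. Its log2 fold change was 0.61 (standard error 0.35, 95% interval -0.31 to 1.53), with -0.18, 0.49 and 1.504 in mice 1, 2 and 3. Without mouse 3 it was 0.16, and without mouse 1 it was 1.01 and past the thresholds (unadjusted p = 0.0312). With the pan-epithelial scaling it was 0.98 (unadjusted p = 0.0200).

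Timp1 lies inside the Syn1 gene, which runs on the opposite strand at 0.907 to 1.52 CPM, and shares no exon base with it (0 of 888). Its promoter is shown because its level varied most between the glands, with the highest library at 5.51 times the lowest: chrX:20869916-20870165 (GRCm38.p6, plus strand, 250 bases up to the RefSeq start), with the motifs named above in capitals.
Timp1: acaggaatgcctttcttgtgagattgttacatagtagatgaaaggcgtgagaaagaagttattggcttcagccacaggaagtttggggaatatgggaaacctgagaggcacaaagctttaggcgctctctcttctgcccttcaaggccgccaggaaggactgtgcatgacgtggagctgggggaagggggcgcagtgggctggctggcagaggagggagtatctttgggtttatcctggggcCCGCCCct
It held 1 GC box and, in these letters, neither an AP-1 motif nor a TATA box.

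Timp2 (chromosome 11, 118301069 to 118355740, minus strand), the inhibitor that also assists the activation of proMMP2, was at 1713, 1122 and 1239 CPM in WT glands and 1831, 1423 and 541 CPM in Adamts18-/- glands. Mice 1 and 2 had the higher value on the Adamts18-/- side, and the Adamts18-/- gland of mouse 3 was the lowest of all. The log2 fold change was -0.24 (standard error 0.34, 95% interval -1.13 to 0.64), with 0.096, 0.34 and -1.20 in mice 1, 2 and 3. Without mouse 3 it was 0.23, so that this mouse set its sign.

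Timp3 (chromosome 10, 86300372 to 86349506, plus strand), which is bound to the extracellular matrix and also inhibits ADAM and ADAMTS proteases, was at 1221, 1445 and 766 CPM in WT glands and 1055, 1430 and 506 CPM in Adamts18-/- glands. The Adamts18-/- gland was the lower one in each mouse, with log2 differences of -0.21, -0.015 and -0.60, while the groups overlapped because the mice differed by more than the genotypes. For Timp3 the log2 fold change was -0.27 (standard error 0.15, 95% interval -0.68 to 0.13), and -0.10 without mouse 3. Timp3 lies inside Syn3, a gene on the opposite strand at 1.19 to 1.84 CPM, and 1733 of the 8144 exon bases of Timp3 are shared. As for Mmp11, how the counting treated strand is not known. What this overlap did to the level of Timp3, and to the Timp sums, was not tested.

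The range between the 3 mouse means was wider than the fitted genotype difference for 9 of the 10 genes, all but Mmp15. A range over 3 means tends to be wider than a single difference even where mice do not differ. The share over all genes was not computed, so this count does not set these genes apart. In the same fit, 6 of the 10 genes (Timp3, Mmp11, Timp1, Mmp9, Mmp13 and Mmp14) had an unadjusted p under 0.05 for the mouse term, where 27.2% of all genes did, and 0 had an adjusted p under 0.05, where 0.628% did (edgeR's quasi-likelihood test). Timp3 had the smallest, with a range of 1.21 between the mouse means on the log2 scale (unadjusted p = 0.00495, adjusted p = 0.0759). The widest range was that of Timp1, 1.46, and the narrowest that of Mmp15, 0.24. Mmp2, Mmp3, Mmp9, Mmp11 and Timp2 had their highest mouse mean in mouse 1 and their lowest in mouse 3.

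The size of the difference between contralateral glands also depended on the mouse. The median absolute log2 difference over the 10 genes was 0.058, 0.323 and 0.596 in mice 1, 2 and 3, against 0.108, 0.153 and 0.229 over all genes tested. The largest difference was in mouse 3 for 9 of the 10 genes and in mouse 2 for Mmp15. The share over all genes was not counted, but their median absolute difference was also largest in mouse 3. In mouse 3, 8 of the 10 genes were lower on the Adamts18-/- side, beside 8811 of the 17345 genes tested. Mmp13 and Timp1 were the exceptions among the 10. The signed median of the 10 genes was -0.032, 0.16 and -0.41 in mice 1, 2 and 3. Over all genes tested it was -0.0098, -0.0052 and -0.0052. The Adamts18-/- gland of mouse 3 also had the lowest adipocyte sum, 5126 CPM, next to 6619 CPM in the WT gland of that mouse and 9998 to 11630 CPM in the other glands, and the part of this in the values was not tested. Without mouse 3 the median log2 fold change of the 10 genes was 0.092, with 0 genes past the thresholds.

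**Figure D4:**
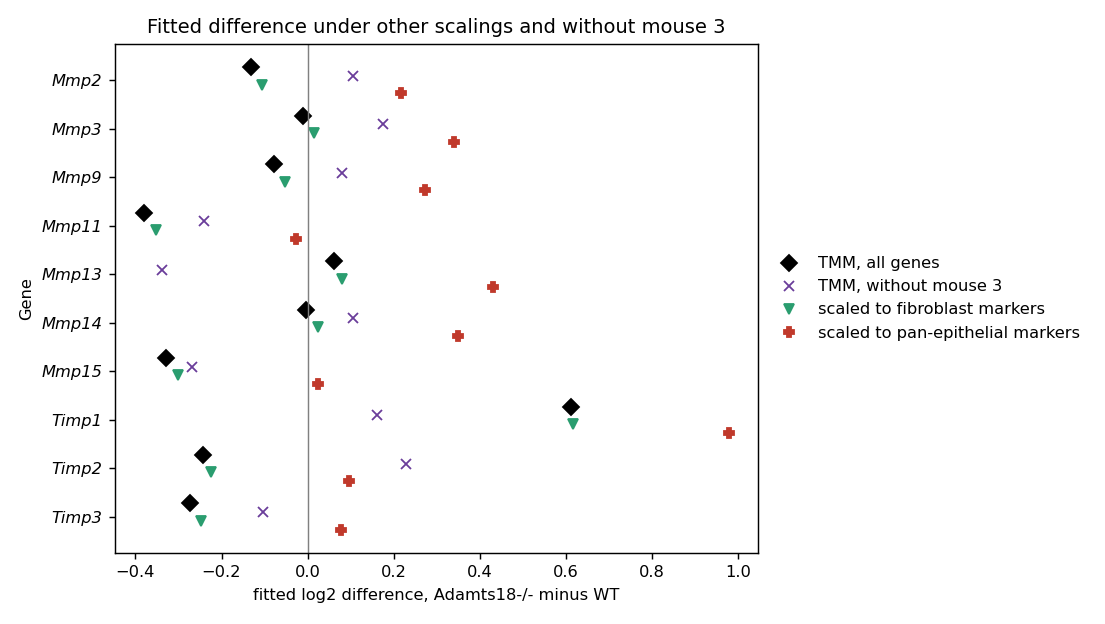
Fitted log2 difference (Adamts18-/- minus WT) of the 10 genes with TMM scaling over all genes (diamonds), with the same scaling without mouse 3 (crosses), and with libraries scaled to fibroblast (triangles) or pan-epithelial markers (plus signs). Fibroblast scaling leaves the values near those of TMM, with Mmp3 and Mmp14 crossing 0 at 0.016 and 0.023. Pan-epithelial scaling moves every gene upwards, as it does the median of all genes, which reaches 0.36. Leaving out mouse 3 turns the sign of Mmp2, Mmp3, Mmp9, Mmp13, Mmp14 and Timp2.

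Of the 17 other genes of the families (16 Mmp genes and Timp4), 10 passed the filter on low counts and 0 of these were lower or higher at the thresholds. Their log2 fold changes were below 0 for 5 and above 0 for 5, with a median of -0.045. Mmp19 and Mmp23 were the most abundant of them at 30.6 and 23.8 CPM per kb in WT glands, above Mmp15 by this length. With merged exons as the length, the WT means of Mmp23 and Mmp15 were 14.6 and 13.4 CPM per kb. In the WT gland of mouse 2, Mmp23 was then at 11.8, below Mmp15 at 14.2. Timp4, the inhibitor of more restricted expression, was at 6.41 ± 2.46 CPM per kb in WT and 5.94 ± 3.14 in Adamts18-/- glands (SD, n = 3 each). Its WT mean was close to that of Timp1, while in the Adamts18-/- gland of mouse 3 Timp4 was at 2.51 and Timp1 at 24.8 CPM per kb. Of 18 genes that activate, inhibit or clear these enzymes, such as Furin, Plau, Reck and Lrp1, 17 were tested, 11 were below 0 and 6 above, 0 were lower and 1 was higher. The gene was A2m, the broad protease inhibitor alpha-2-macroglobulin, which was low at 0.244, 0.147 and 0.782 CPM in WT and 0.325, 0.314 and 1.43 CPM in Adamts18-/- glands. Its groups overlapped, but it was higher in each mouse, by a fitted log2 fold change of 0.79 (standard error 0.26, unadjusted p = 0.0305, adjusted p = 0.987, edgeR's quasi-likelihood test). A2m did not pass without any 1 of the mice (0.96, 0.68 and 0.73 without mice 1, 2 and 3), and it passed under 6 of 12 alternatives. The median of the 17 genes was -0.068. Furin, which cleaves the propeptide of Mmp11, Mmp14 and Mmp15, had a log2 fold change of -0.13 (95% interval -0.33 to 0.067), and Reck, a membrane-anchored inhibitor of several MMPs, -0.25 (-0.83 to 0.34).

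For each gene the tested genes with the most similar profile over the 6 glands were found by the root mean square difference of centred log2 CPM. This is a description that rests on 6 libraries only. Differences between mice, between genotypes and of single glands all enter it. Nearest to Mmp2 were Radil (0.016) and Ctsk (0.029), the gene for the collagen-cleaving protease cathepsin K. Mmp3 was nearest to Esr1 (0.028), the oestrogen receptor alpha gene, and Ang (0.033). Mmp9 was nearest to Igsf10 (0.037) and Rcan2 (0.043), Mmp11 to Ntn1 (0.099), which encodes netrin 1, and Frmd7 (0.116), and Mmp14 to C1qc (0.037), a complement gene of macrophages, and Grn (0.039). Mmp15 was nearest to AA986860 (0.051) and Ankrd24 (0.053). Timp1 was nearest to S1pr3 (0.110) and Col6a6 (0.124), which were likewise highest in the Adamts18-/- gland of mouse 3 at 57.4 and 122 CPM. Timp2 was nearest to Tnxb (0.069), the gene of the matrix protein tenascin X, and Ahnak2 (0.082), and Timp3 to Gas6 (0.039) and Eltd1 (0.041). The nearest genes of Mmp13 were farther off than those of the other 9 genes, both at 0.247: Gm17269, at 0.391 CPM or less, and Ddit4, at 61.1 to 133 CPM.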

How the data were processed

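RNA from 6 glands of 3 mice was sequenced with single-end reads of 85 bases. The values deposited by the authors are raw read counts, 1 whole number for each gene symbol and library. The submitters' processing notes name bcl2fastq 2.18, TopHat2 2.0.11, featureCounts 1.6.2 and edgeR, and the build mm9; the annotation and the strand setting are not given in the sources used here. Coordinates and lengths are those of GENCODE M21 (GRCm38) and promoters those of RefSeq (GRCm38.p6), so lengths may differ from the counted models. 0 columns belonged to other samples.

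The 17345 genes kept by edgeR 4.0.16 (filterByExpr, R 4.3.3) were TMM-scaled and tested by its quasi-likelihood test with genotype and mouse as terms, with Benjamini-Hochberg adjustment. The common biological coefficient of variation was 20.0%. Log2 differences within a mouse used a prior count of 2. Contralateral glands were paired by the labels, and their deviations from the group means correlated across genes (0.512, 0.505 and 0.639 in mice 1, 2 and 3). The script was tested on simulated data.

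The 10 genes and all lists (other Mmp genes with Timp4, regulators, cell type markers) were chosen with earlier results of these data known. Named were the 10 genes, list members past the thresholds, Adamts18 and the 2 tested genes nearest in profile to each. Emr1 stands for Adgre1 in the macrophage list. Other genes, such as Mmp12, Mmp19, Mmp23, Mmp27, Timp4, Furin and Reck, were named after their values were seen. Alternatives were DESeq2 1.42.0, limma-voom (limma 3.58.1), other scalings and filters, no block, and each mouse left out. No set test was run. The values of 1 gene, which was kept in all fits and counts, are not reported here.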

Additional observations from a re-analysis of the deposited data

How the results depend on the processing

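With 3 pairs of glands, only sizeable differences can be told from the spread. Among the 10 genes, Mmp15 was lower at the thresholds under 9 of 13 alternatives, and none reached an adjusted p under 0.05 under any of the 13. The cause of the changes below was not tested.

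Without the mouse as a block (no pairing), 125 genes were lower and 0 regulators higher, and the log2 fold changes of Mmp3 and Mmp13 turned to 0.012 and -0.076. With DESeq2, 340 genes were higher, 71 passed by adjusted p, 2 of the 10 genes were lower and 0 regulators higher. With limma-voom, 345 genes were higher and Mmp13 was at -0.0022. With library size scaling, 2 of the 10 genes were lower. With at least 10 counts in every library, which removes A2m, 0 regulators were higher. With no filter, 352 genes were higher, 2 of the 10 were lower, and the mouse term gave 1106 genes, 1 of the 10 among them, by adjusted p. Scaled to the fibroblast markers, 84 genes were lower, 331 higher and 174 passed by adjusted p, 0 of the 10 genes were lower, 0 regulators were higher, the mouse term gave 1804 genes (1 of the 10), and Mmp3 and Mmp14 were at 0.016 and 0.023. Scaled to the pan-epithelial markers, which raised the median of all genes to 0.36, 23 were lower, 791 higher and 220 passed by adjusted p. Of the 10 genes, 0 were lower and 1 higher, and the mouse term gave 918 genes. The medians then were 0.24 for the 10 genes, 0.31 for the other Mmp genes with Timp4 and 0.28 for the regulators, and the signs turned for Mmp2 (0.22), Mmp3 (0.34), Mmp9 (0.27), Mmp14 (0.35), Mmp15 (0.025), Timp2 (0.097) and Timp3 (0.077).

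With each mouse left out in turn, 214 to 481 genes were lower, 182 to 581 higher, 0 to 268 passed by adjusted p and 12 to 48 by the mouse term. Of the 10 genes, 0 to 2 were lower and 0 to 1 higher. Of the other Mmp genes with Timp4, 0 to 1 were lower (Mmp27 at -0.58 without mouse 1, Mmp19 at -0.32 without mouse 2), with a median of -0.25 to 0.034. Of the regulators, 0 to 1 were lower (Lcn2 at -0.42 without mouse 1) and 0 to 1 higher (Pcsk6 at 0.46 without mouse 3). Log2 fold changes ranged from -0.33 to 0.11 for Mmp2, -0.17 to 0.17 for Mmp3, -0.19 to 0.080 for Mmp9, -0.34 to 0.37 for Mmp13, -0.097 to 0.11 for Mmp14 and -0.55 to 0.23 for Timp2.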

Other observations

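Mmp12 and Mmp19, genes of matrix proteolysis, differed widely between the contralateral glands of single mice, without passing the thresholds in the fit over 3 mice, and were chosen after their values were seen. Mmp19 was at 82.9 CPM in the WT and 199.95 CPM in the Adamts18-/- gland of mouse 2, a log2 difference of 1.27, but at -0.23 and -0.41 in mice 1 and 3. Its fitted log2 fold change was 0.20 over all mice and -0.32 without mouse 2, where it was lower at the thresholds (unadjusted p = 0.0348, edgeR's quasi-likelihood test). Mmp12 had log2 differences of 1.10, -0.97 and -0.050 in mice 1, 2 and 3. Such differences were not particular to these genes. In mouse 3, Mmp25 was at 1.37, Mmp16 at -1.01 and Mmp8, counted only 5 to 17 times per library, at 1.18. These were likewise named after their values were seen.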
